A study of Rattus norvegicus with 4 samples.

Results

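The MAP kinase cascade kinases were taken from the deposited count table as genes whose symbol is Mapk, Map2k, Map3k or Map4k followed only by a number. The analysis covers 40 genes of the 34773 listed: 12 MAPKs, 7 MAP2Ks, 16 MAP3Ks and 5 MAP4Ks. Of these, 36 passed the filter on low counts and entered the test, which covered 15028 genes. RAF kinases, TAO kinases and other enzymes of the same levels that carry other names fall outside the rule and are given as a separate list. Poly(A) RNA was sequenced from rat embryonic stem cells (ESCs) in 4 libraries. The wild-type (WT) group is 1 library of DA-5-3GFP, an ESC line with a GFP reporter at *Rex1*, a gene of naive pluripotency. The *Thop1*-KO group is 3 libraries, 1 from each of subclones #1, #2 and #3, which carry the same reporter and were picked as puromycin-resistant colonies after Cas9 was directed at *Thop1*, the gene of the peptidase thimet oligopeptidase. Each subclone is a single clone, and the methods describe the rat ESCs as grown on feeder cells with LIF, the MEK inhibitor PD0325901 and the GSK3 inhibitor CHIR99021. The methods give DA-5-3 as the wild-type line and as a diploid control, and a figure legend also gives it as diploid. The submitted description of the series speaks of haploid cells instead.

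MAP kinase cascades pass a signal down a chain of kinases. A MAP4K or a small GTPase switches on a MAP3K, the MAP3K phosphorylates a MAP2K, and the MAP2K phosphorylates a MAPK on its activation loop, which then acts on transcription factors and further kinases. The ERK1/2 arm answers mainly to growth factors and drives ESCs out of naive pluripotency, which is why a MEK inhibitor is part of the 2i medium, while the JNK and p38 arms answer mainly to stress and cytokines. RNA levels do not report phosphorylation, so the values below are transcript abundance only.

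*Thop1* itself, the check of the labels, was at 110, 92.5 and 149 CPM (counts scaled by library size with TMM) in #1, #2 and #3 and at 370 in WT, with log2 fold change -1.66 (adjusted p = 0.0187, edgeR with Benjamini-Hochberg adjustment). The counts on genes summed to 15405499 in WT and to between 16525074 and 17936544 in the subclones. Of 9 listed ESC markers in the table, all had counts in every library, and their summed level in FPKM (the authors' values scaled by gene length and library) was 5232, 4377 and 5097 in #1, #2 and #3 and 6313 in WT. Fibroblast markers, which would mark feeder cells, summed to 57.1, 117 and 71.6 FPKM in the subclones and 38.7 in WT. *Dcn*, *Lum* and *Thy1* were at 0 in every library. None of 5 tested markers was called (2 higher at an unadjusted p under 0.05 in edgeR, and 1 higher by DESeq2). *Col1a1* alone held 51.81, 94.15 and 62.51 FPKM of these sums in the subclones and 32.24 in WT. *Col3a1* was at 3.37, 16.6 and 7.55 FPKM against 1.32 in WT, while *Acta2* had a log2 fold change of -0.95. Of the ESC markers, 2 were called higher and 2 lower. The higher were *Esrrb*, at 252, 217 and 245.5 FPKM in #1, #2 and #3 and 12.1 in WT, and *Tfcp2l1*, at 31.1, 33.9 and 36.9 against 4.61. The lower were *Utf1*, at 600, 388 and 593 FPKM in the subclones and 1500 in WT, and *Dppa5*, at 519, 592 and 451.5 against 1054. *Pou5f1* held 3403, 2718 and 3294 FPKM of the ESC marker sum in the subclones and 3347 in WT. Primitive endoderm markers summed to 39.8, 32.1 and 35.7 FPKM in the subclones and 13.6 in WT, and 1 of 7 tested, *Lamb1*, was called higher in *Thop1*-KO. *Lamb1* alone held 36.4, 29.3 and 33.4 FPKM of these sums in the subclones and 11.8 in WT, while *Gata4* had 3, 0 and 3 counts against 17 in WT, and at an unadjusted p under 0.05 the edgeR test gave 3 of the 7 higher and 1 lower. The part of these cell types in the results was not tested, and in bulk RNA fewer cells of a type and less RNA per cell cannot be told apart. As WT is a single library, its own spread is unknown and the test takes it from the subclones, and the knockout cannot be told apart from a difference of that 1 culture or library, or from clonal selection.

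The promoters of the called kinases are shown because 26 of the 36 kinase promoters found in RefSeq (72.2%) held at least 1 GC box. The letters GGGCGG, searched on both strands, occurred in 33.1% of all 33465 RefSeq promoters of the same length and in 41.8% of the 21847 promoters of protein-coding genes. Each sequence below runs 5′ to 3′ from 250 bases before to 50 bases after the gene's start in the assembly GRCr8. GC boxes, CCAAT boxes (CCAAT) and ETS cores (CCGGAA) are in capitals in either orientation, and where a pair of them abut, as at the start of the *Map2k7* promoter, they form 1 run of capitals. The *Map2k7* promoter lies at chr12:7389017-7389316 on the plus strand, that of *Mapk6* at chr8:85050187-85050486 on the minus strand, that of *Map3k3* at chr10:91519726-91520025 on the plus strand and that of *Map3k12* at chr7:135526223-135526522 on the minus strand. *Mapk3*, *Mapk9*, *Mapk15* and *Map4k4* had no entry.
Map2k7: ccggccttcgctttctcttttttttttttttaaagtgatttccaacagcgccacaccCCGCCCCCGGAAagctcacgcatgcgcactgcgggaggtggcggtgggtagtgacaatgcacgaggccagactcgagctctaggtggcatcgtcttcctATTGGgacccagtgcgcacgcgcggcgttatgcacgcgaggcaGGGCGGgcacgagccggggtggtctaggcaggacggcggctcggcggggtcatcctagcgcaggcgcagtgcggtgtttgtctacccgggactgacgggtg
Mapk6: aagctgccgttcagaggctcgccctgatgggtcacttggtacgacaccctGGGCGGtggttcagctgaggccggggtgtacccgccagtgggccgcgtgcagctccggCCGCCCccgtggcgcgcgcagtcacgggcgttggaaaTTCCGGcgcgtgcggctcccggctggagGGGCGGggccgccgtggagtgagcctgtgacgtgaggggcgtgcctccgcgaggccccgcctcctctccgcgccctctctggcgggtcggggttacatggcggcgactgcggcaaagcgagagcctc
Map3k3: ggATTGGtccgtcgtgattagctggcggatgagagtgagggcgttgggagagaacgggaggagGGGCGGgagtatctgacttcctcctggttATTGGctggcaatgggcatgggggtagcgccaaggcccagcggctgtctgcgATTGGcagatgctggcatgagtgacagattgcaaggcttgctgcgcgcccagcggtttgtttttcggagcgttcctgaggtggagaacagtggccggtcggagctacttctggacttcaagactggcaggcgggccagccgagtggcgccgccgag
Map3k12: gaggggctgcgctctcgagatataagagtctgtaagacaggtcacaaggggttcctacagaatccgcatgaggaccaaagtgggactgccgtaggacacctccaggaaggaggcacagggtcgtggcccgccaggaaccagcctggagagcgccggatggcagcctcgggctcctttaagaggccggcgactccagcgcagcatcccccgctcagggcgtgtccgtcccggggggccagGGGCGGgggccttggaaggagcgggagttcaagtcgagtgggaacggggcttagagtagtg
Each of the 4 held at least 1 GC box, and their GC content was 63.3% for *Map2k7*, 73% for *Mapk6*, 62% for *Map3k3* and 64.7% for *Map3k12*. The promoters of the 36 kinases had a median GC content of 66.2%, against 55% for protein-coding genes and 51.7% for all promoters. The TATA box letters TATAAA were found in 0 kinase promoters, against 13% of those of protein-coding genes. CCAAT boxes stood in 36.1% of the kinase promoters and in 38% of those of protein-coding genes, and ETS cores in 25% and 17.7%. The other motifs were rare: the cAMP response element TGACGTCA was in 5.56% of kinase promoters and 2.1% of coding ones, the AP-1 site TGANTCA in 5.56% and 6.53%, and the E-box CACGTG in 2.78% and 7.01%. The letters describe these windows and say nothing of which factors bind there.

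In all, 3 kinases were higher and 1 was lower in *Thop1*-KO than in WT at an adjusted p under 0.05 in the quasi-likelihood F-test of edgeR, with p adjusted after Benjamini and Hochberg over all genes tested. The kinases called higher were *Map2k7*, *Mapk6* and *Map3k3*, and the kinase called lower was *Map3k12*. The 3 higher are 8.33% of the kinases tested, where 8.62% of all genes tested were called higher, and the 1 lower is 2.78%, where 5.17% were called lower. Both shares lie near those of all genes. At an unadjusted p under 0.05, 16 of the 36 kinases passed, against 34% of all genes. DESeq2's Wald test called 8 kinases higher and 1 lower, where it called 21.5% of all genes with an adjusted p in either direction. The subclones weighed unequally on these counts. Without #2 the edgeR test called 15 kinases higher and 2 lower, with 37.9% of all genes called, and without #3 it called 1 higher and 0 lower (6 and 1 at an unadjusted p under 0.05), with 3.1% of all genes called.

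Most kinases were more abundant in every subclone than in WT, whether called or not. WT lay below all 3 subclones for 22 of the 36 kinases (61.1%), against 38.1% of all genes tested, and above all 3 for 6 kinases (16.7%), against 37.6%. These counts take each kinase by its own row, without the copies given below. The median log2 fold change of the 36 was 0.76, and that of all genes tested was 0.06. Taken one by one, the subclones gave kinase medians of 0.69 (#1), 0.48 (#2) and 0.84 (#3) against WT. Gene length moved with this: once each library was corrected for it by a loess fit, the median of the kinases was 0.41 and that of all genes was -0.09, and WT lay below all 3 subclones for 19 kinases (52.8%, against 32.6% of all genes) and above them for 8 (22.2%, against 42.6%).

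**Figure D1:**
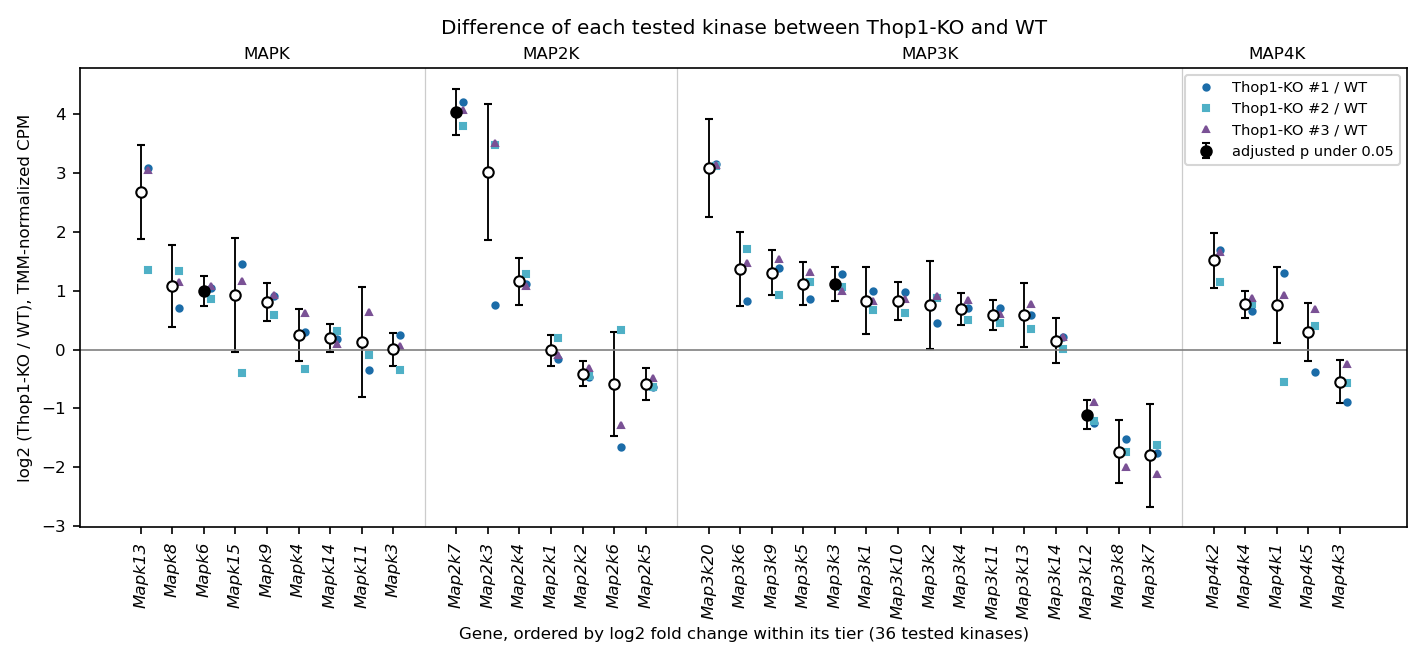
Log2 fold change of each of the 36 tested kinases between *Thop1*-KO and WT, by tier, from TMM-normalized CPM; circles are edgeR estimates with standard errors, filled where the adjusted p was under 0.05, and coloured symbols are each subclone against the 1 WT library. *Map2k7* at 4.04 is the farthest from 0, and the subclones lie apart from each other most in *Map2k3* and *Map2k6*.

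The kinases spanned a wide range of levels, and each tier was dominated by 1 or a few of its members. Per length, *Mapk3* led the MAPKs with a mean of 148 FPKM over the 4 libraries, *Map2k2* the MAP2Ks with 145, *Map4k4* the MAP4Ks with 79.1 and *Map3k12* the MAP3Ks with 28.3. The MAP4K tier summed to 142, 111 and 144 FPKM in #1, #2 and #3 and to 80.3 in WT, below all of them, while the MAP2K tier summed to 222, 233 and 239.5 FPKM and to 242 in WT, close to #3. The median log2 fold changes of the tiers were 0.81 for the MAPKs, -0.01 for the MAP2Ks, 0.76 for the MAP3Ks and 0.76 for the MAP4Ks, the MAP2K median being close enough to 0 that its sign turned with library size scaling, without a filter on low counts and without #1 or #3. With the gene length correction the medians of the MAPKs, MAP3Ks and MAP4Ks were 0.46, 0.45 and 0.37, and with limma on log2(FPKM + 1) those of the MAPKs and MAP3Ks were 0.25 and 0.42.

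**Figure D2:**
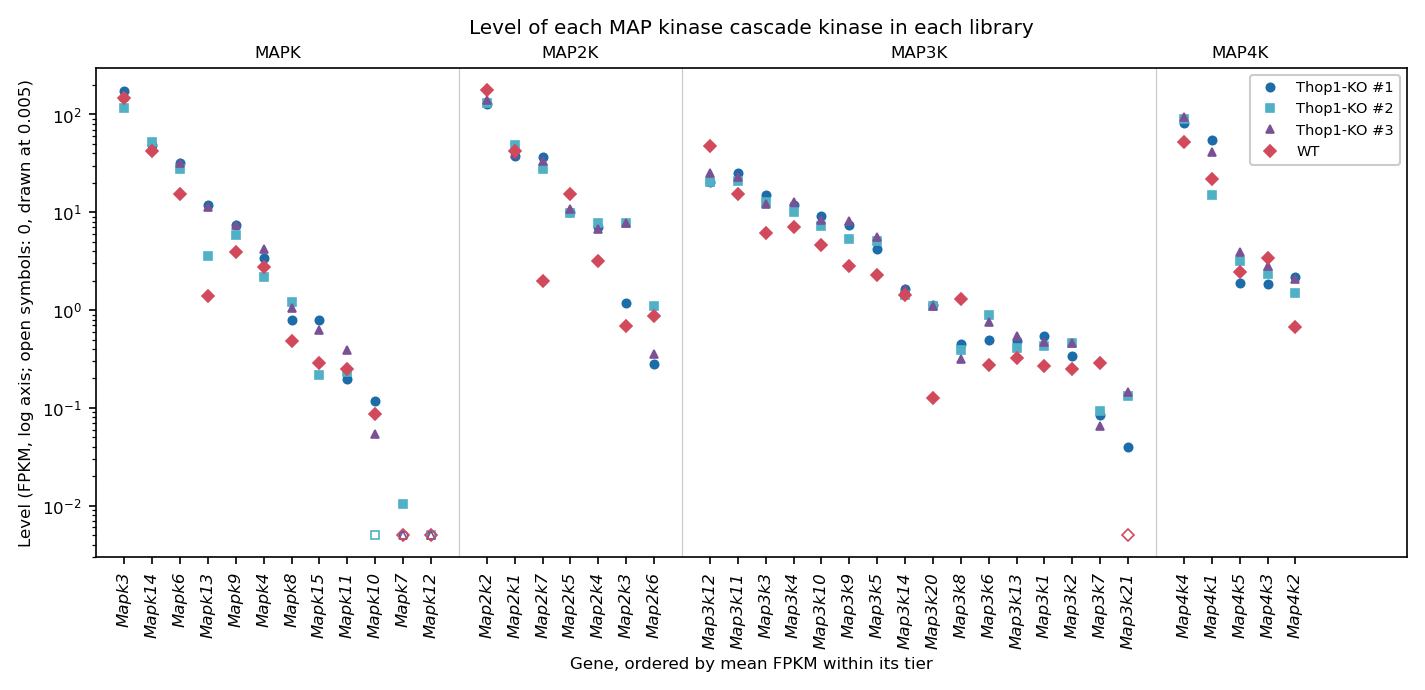
Level of each of the 40 kinases in each library in FPKM on a log axis, by tier and ordered by mean level; open symbols are values of 0 drawn at 0.005. *Mapk3*, *Map2k2*, *Map3k12* and *Map4k4* lead their tiers, and the WT symbol of *Map2k7* stands well under those of the subclones.

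*Mapk3*, which encodes ERK1, a terminal kinase of the ERK1/2 arm, was at 315, 210 and 277 CPM in #1, #2 and #3 and at 266 in WT. Here WT lay within the range of the subclones, and the log2 fold change was 0.01 (SE 0.28, adjusted p = 0.989, edgeR, Benjamini-Hochberg).

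The MAP2Ks of the ERK1/2 arm, targets of the MEK inhibitor in the medium, were not called. *Map2k1*, encoding MEK1, was at 76.6, 98.6 and 80.6 CPM in #1, #2 and #3 and at 85.9 in WT, which lay inside the subclones' range. *Map2k2*, encoding MEK2, was at 201, 203 and 224 CPM in the subclones and at 277 in WT. WT was above all 3 subclones, with a log2 fold change of -0.41 (SE 0.22, adjusted p = 0.228, edgeR, Benjamini-Hochberg). *Map2k2* held 57.7% ± 1.69 (SD, n = 3) of the summed FPKM of the MAP2K tier in the subclones and 73.4% in WT.

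The ERK5 arm rested on 1 measurable kinase. *Map2k5*, which encodes MEK5, was at 23.0, 23.0 and 25.5 CPM in #1, #2 and #3 and at 35.8 in WT, above all of them (log2 fold change -0.59, SE 0.27, adjusted p = 0.181, edgeR, Benjamini-Hochberg). *Mapk7*, which encodes ERK5, had 1 count in #2 and 0 in the other libraries and was not tested. Another entry, LOC100912585, which the table describes as Mapk7-like, had 24, 151 and 34 counts against 26 in WT, so the *Mapk7* row does not hold all reads of such sequence. Reads of near-identical copies may be split or dropped in counting, and the ERK5 level is uncertain for that reason.

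By summed level the JNK arm was 4.92 times as high in the subclones as in WT, and *Map2k7* made up most of it. *Map2k7* encodes MKK7, the MAP2K dedicated to JNK, and was at 48.5, 36.6 and 44.4 CPM in #1, #2 and #3 and at 2.62 in WT. In raw counts these were 813, 648, 797 and 39. The subclones were far above WT with no overlap, the log2 fold change being 4.04 (SE 0.40, adjusted p = 0.00678, edgeR, Benjamini-Hochberg), a fold of 16.4. The gene lies at chromosome 12, 2548218 to 2555164, on the minus strand in the deposited annotation, and its nearest measured neighbours *Snapc2*, *Tgfbr3l*, *Lrrc8e* and *Evi5l* had log2 fold changes between -0.94 and 0.77, with adjusted p of 0.0850 or more in the same edgeR test. *Map2k4*, encoding MKK4, which acts on both JNK and p38, was at 7.87, 8.82 and 7.68 CPM across the subclones against 3.63 in WT, with log2 fold change 1.16 (SE 0.40, adjusted p = 0.0977, same edgeR test). In FPKM the order of these kinases differed between the groups. *Map2k4* exceeded *Map2k7* 1.62 times in WT, while in the subclones the ratio was 0.190, 0.282 and 0.203, and *Map2k7* made up 81.7% ± 3.25 (SD, n = 3) of the JNK MAP2Ks in the subclones and 38.1% in WT.

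The JNKs themselves were low and uncalled with all libraries, but lower in WT than in every subclone where they could be tested. *Mapk9*, encoding JNK2, was at 29.9, 23.9 and 30.3 CPM in #1, #2 and #3 and at 15.9 in WT (log2 fold change 0.81, SE 0.32, adjusted p = 0.131, edgeR, Benjamini-Hochberg). Only the edgeR fit without #2 called *Mapk9* higher. *Mapk8*, encoding JNK1, was at 1.31, 2.04 and 1.78 CPM in the subclones and at 0.81 in WT, from 12 to 36 counts. Its log2 fold change of 1.08 had a standard error of 0.70 and did not pass the test (adjusted p = 0.311, edgeR, Benjamini-Hochberg). *Mapk10*, encoding the neuronal JNK3, stayed untested with 6, 0 and 3 counts against 4 in WT. WT lay below all 3 subclones for all 4 tested kinases of the arm, beside 61.1% of the 36 kinases and 38.1% of all genes tested. The arm's summed level was 52.1, 42.6 and 48.2 FPKM in the subclones against 9.69 in WT. The MAP2K level of the arm was 39.7 ± 4.16 FPKM (SD, n = 3) in the subclones and 5.19 in WT, and the MAPK level 7.98 ± 0.76 and 4.50.

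**Figure D3:**
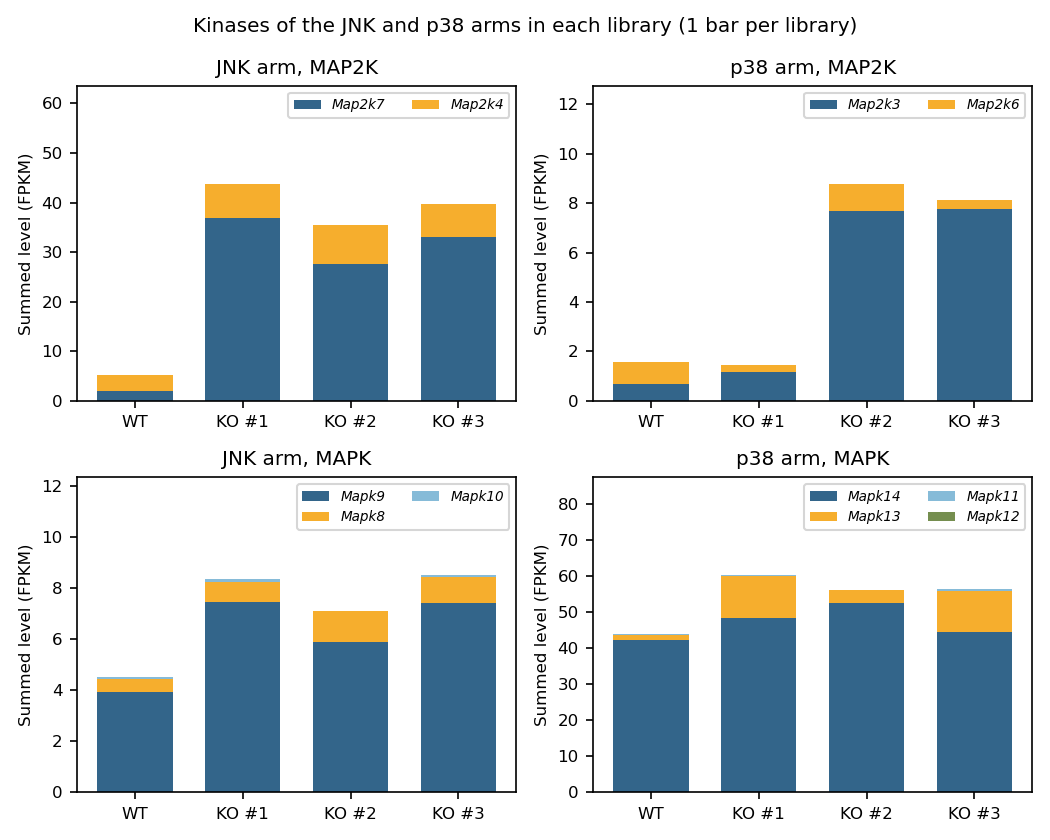
Summed level in FPKM of the MAP2Ks (upper row) and MAPKs (lower row) of the JNK and p38 arms, with 1 bar per library, stacked by gene, each panel on its own linear axis. *Map2k7* fills most of the JNK MAP2K bar in the 3 subclones, and the p38 MAP2K bar of #1 is as low as that of WT.

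In the p38 arm the main kinase differed little and the minor ones varied between subclones. *Mapk14*, encoding p38 alpha, was at 170, 186 and 161 CPM in #1, #2 and #3 and at 150 in WT (log2 fold change 0.20, SE 0.23, adjusted p = 0.569, edgeR, Benjamini-Hochberg). *Mapk13*, encoding p38 delta, was at 22.2, 6.73 and 21.8 CPM in the subclones and at 2.62 in WT. All subclones stood above WT but #2 was much nearer to it, and the log2 fold change of 2.68 (SE 0.80, adjusted p = 0.0688, same edgeR test) was not called. DESeq2 called *Mapk13* higher, as did edgeR without a filter on low counts and without #2. *Mapk11*, encoding p38 beta, had between 8 and 17 counts in each library, with log2 fold change 0.13 (SE 0.94). *Mapk12*, encoding p38 gamma, had 0 counts in all 4 libraries, which allows up to 3 counts in each, or 0.202 CPM in WT and 0.179 or less in the subclones.

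The activators of p38 split the subclones. *Map2k3*, encoding MKK3, was at 2.74 CPM in #1, 18.0 in #2 and 18.5 in #3, and at 1.61 in WT. Subclone #1 was thus near WT and the other 2 were above it. The log2 fold change was 3.01 (SE 1.15, adjusted p = 0.121, edgeR, Benjamini-Hochberg), and it was called by DESeq2, by edgeR without #1 and by edgeR without #2. *Map2k6*, encoding MKK6, was at 0.60, 2.38 and 0.78 CPM in the subclones and 1.88 in WT, from 10 to 42 counts, with WT inside the range. The p38 arm summed to 61.7, 65.1 and 64.5 FPKM in the subclones and 45.4 in WT, most of it *Mapk14*. That gene held 96.3% of the p38 MAPKs in WT and 80.1%, 93.3% and 79.2% in #1, #2 and #3.

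Of the atypical MAPKs, which lack the usual activation-loop motif or a known MAP2K, *Mapk6* was called. *Mapk6*, encoding ERK3, was at 134, 118 and 137 CPM in #1, #2 and #3 and at 64.8 in WT, with no overlap. Its log2 fold change was 1.00 (SE 0.25, adjusted p = 0.0475, edgeR, Benjamini-Hochberg), close to the threshold. The gene lies at chromosome 8, 82328020 to 82351108, on the minus strand in the deposited annotation, and its measured neighbour *Gnb5*, 42836 bases away, had a log2 fold change of 1.14 (adjusted p = 0.0912 by edgeR), while *Leo1*, 29649 bases away on the other side, had one of -0.56 (adjusted p = 0.191 by edgeR). *Mapk4*, encoding its relative ERK4, was at 15.6, 10.1 and 19.7 CPM in the subclones and 12.7 in WT, and *Mapk15*, encoding ERK8, had 31, 9 and 27 counts across the subclones and 10 in WT. In both, WT lay within the range of the subclones.

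Of the 15 MAP3Ks tested, 1 was called higher and 1 lower (6.67% each), where 8.62% of all genes were called higher and 5.17% lower. At an unadjusted p under 0.05 the edgeR test gave 6 higher and 2 lower, where 34% of all genes passed in either direction. DESeq2 called 3 higher and 1 lower, where it called 21.5% of all genes in either direction. *Map3k3*, which encodes MEKK3, was at 69.8, 59.4 and 57.1 CPM in #1, #2 and #3 and at 28.6 in WT. Its log2 fold change was 1.12 (SE 0.29, adjusted p = 0.0476, edgeR, Benjamini-Hochberg), and it lies at chromosome 10, 94280703 to 94349368, on the plus strand in the deposited annotation. The neighbouring gene *Limd2*, 1449 bases away, had a log2 fold change of 1.36 (adjusted p = 0.0526 by edgeR), and *Taco1* on the other side had one of -0.12 (adjusted p = 0.856 by edgeR). *Map3k12* encodes DLK, known for its role in axon injury signalling to JNK, and was at 69.9, 71.2 and 88.5 CPM in the subclones and at 165 in WT. WT was above all subclones, and the log2 fold change was -1.11 (SE 0.25, adjusted p = 0.0343, same edgeR test). *Map3k12* lies at chromosome 7, 144102680 to 144109116, on the minus strand in the deposited annotation. On one side, *Prr13*, 4579 bases away, was called lower too (log2 fold change -1.38, adjusted p = 0.0176 by edgeR), while the nearer *Pcbp2*, 787 bases away, had a log2 fold change of -0.17 (adjusted p = 0.655 by edgeR). On the other side, *Tarbp2*, 12628 bases away, had one of -0.29 (adjusted p = 0.3985 by edgeR). *Map3k11*, encoding the mixed-lineage kinase MLK3, was the second of the tier by mean FPKM, at 88.4, 74.6 and 82.4 CPM in the subclones and 54.4 in WT (log2 fold change 0.59, SE 0.26, adjusted p = 0.162, same edgeR test).

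The make-up of the MAP3K tier differed between the groups while its sum overlapped. The tier summed to 98.0, 87.3 and 100.2 FPKM in #1, #2 and #3 and to 89.9 in WT, which lay within that range. *Map3k12* made up 52.7% of it in WT and 20.6%, 23.5% and 25.1% in the subclones. The ratio of *Map3k12* to *Map3k11* in FPKM was 3.10 in WT and 0.809, 0.977 and 1.10 in the subclones. By subfamily, the MEKKs summed to 25.7 ± 1.95 FPKM (SD, n = 3) in the subclones and 13.8 in WT, the MLKs to 38.2 ± 4.13 and 22.7, and the ASK kinases to 5.66 ± 0.88 and 2.55. The sum of *Map3k12* and its relative *Map3k13* was 22.4 ± 2.82 FPKM in the subclones and 47.7 in WT, nearly all of it *Map3k12*, and *Map3k13* itself was lower in WT than in every subclone.

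All the remaining MAP3Ks are given, some more briefly than others. WT lay below all 3 subclones for 12 of the 15 tested members of the tier (80%), against 38.1% of all genes tested. It lay above all 3 for the other 3 (20%, against 37.6%), *Map3k12*, *Map3k8* and *Map3k7*. The 12 include *Map3k13* and *Map3k20*, and the 3 include *Map3k7*, each by its own row alone, with limits given below. *Map3k8*, encoding TPL2, which feeds the ERK arm in immune cells, had 22, 20 and 17 counts across the subclones and 56 in WT (log2 fold change -1.73, SE 0.54, adjusted p = 0.0771, edgeR, Benjamini-Hochberg). It was called lower by edgeR with at least 10 counts in every library and without #2, but not by DESeq2. *Map3k4*, encoding MEKK4, was at 63.9, 55.4 and 69.9 CPM and 39.1 in WT (log2 fold change 0.69). *Map3k10*, encoding MLK2, was at 32.6, 25.6 and 29.9 CPM and 16.6 in WT (log2 fold change 0.83). The MLK1 gene *Map3k9* had a larger difference. It was at 27.8, 20.2 and 31.1 CPM in the subclones and 10.6 in WT, with log2 fold change 1.31 (SE 0.38, adjusted p = 0.0664, same edgeR test). *Map3k5*, encoding the stress kinase ASK1, was at 17.4, 21.1 and 23.8 CPM and 9.55 in WT (log2 fold change 1.12, SE 0.36, adjusted p = 0.0826, same edgeR test). DESeq2 called *Map3k9* and *Map3k5* higher. The edgeR fit without #2, which called 37.9% of all genes, called these and also *Map3k4* and *Map3k10* higher. *Map3k14*, encoding NIK of the non-canonical NF-kappaB pathway, was almost level, at 7.04, 6.11 and 7.01 CPM and 6.06 in WT. The other members were low: *Map3k6* (ASK2), *Map3k13* (the DLK relative LZK), *Map3k1* (MEKK1) and *Map3k2* (MEKK2) lay between 1.01 and 3.96 CPM in the subclones and between 0.74 and 1.82 CPM in WT, with log2 fold changes of 1.37, 0.58, 0.83 and 0.76. *Map3k21*, encoding MLK4, had 2, 7 and 8 counts across the subclones and 0 in WT and was not tested. For *Map3k13*, 5 overlapping genes had more than 3 counts, and without strand information its reads cannot be separated from theirs.

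Copies in the annotation made 2 of the MAP3K rows uncertain. *Map3k20*, encoding ZAK, had 30, 31 and 32 counts across the subclones and 3 in WT, a ratio of 8.79 with a 95% exact counting interval from 2.92 to 43.4, which covers counting error only (adjusted p = 0.0546, edgeR, Benjamini-Hochberg; the fitted log2 fold change of 3.09 depends on the prior count). A locus that the authors added 48932 bases beyond it, described in the table as the same kinase, had 12, 28 and 24 counts across the subclones and 42 in WT. With both rows summed the counts were 42, 59 and 56 in the subclones and 45 in WT, and the log2 fold change was -0.02 (SE 0.49, adjusted p = 0.982, same edgeR test). *Map3k7*, encoding TAK1, a kinase of the TGF-beta and cytokine pathways, showed the reverse order. It had 6, 7 and 5 counts across the subclones and 18 in WT. LOC100910771, described as a copy of it, had more, at 20, 62 and 41 counts and 139 in WT. The deposited annotation places *Map3k7* on chromosome 9 and the copy on chromosome 5 beside Bach2. RefSeq's GRCr8 has *Map3k7* on chromosome 5, also beside Bach2. The row named *Map3k7* may thus not be its main locus, and the tier values use that row alone. Summed, *Map3k7* and its copy gave 26, 69 and 46 counts across the subclones and 157 in WT, with log2 fold change -1.98 (SE 0.52, adjusted p = 0.0510, same edgeR test), not called. These sums were formed after the data were seen.

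No MAP4K was called by edgeR with all libraries. In the same test 2 of 5 had an unadjusted p under 0.05, where 34% of all genes did. DESeq2 called 1 of them, *Map4k2*, where it called 21.5% of all genes in either direction. Without #2 edgeR called *Map4k1*, *Map4k2* and *Map4k4* higher, in a fit that also called far more of all genes. *Map4k4*, encoding HGK, an upstream kinase of the JNK pathway, was at 475, 518 and 553 CPM in #1, #2 and #3 and at 303 in WT, the highest counts of any kinase here. WT stood below all subclones (log2 fold change 0.77, SE 0.23, adjusted p = 0.0667, edgeR, Benjamini-Hochberg). *Map4k1*, encoding HPK1, known from blood cells, was at 153, 42.5 and 118 CPM in the subclones and 62.0 in WT. Subclone #2 was below WT and the others above, so the groups overlapped. It held 38.2%, 13.5% and 28.6% of the tier's FPKM in the subclones and 27.2% in WT. *Map4k5* was at 6.26, 10.7 and 13.1 CPM in the subclones and 8.14 in WT. The other 2 members went in opposite directions, *Map4k3*, encoding GLK, being at 8.35, 10.4 and 13.0 CPM against 15.4 in WT and *Map4k2* at 8.94, 6.11 and 8.68 CPM against 2.76 (log2 fold changes -0.54 and 1.52, with adjusted p of 0.335 and 0.0734 by edgeR).

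Among the subclones, the kinases varied by a median coefficient of variation of 13.9% (33 kinases with a mean of at least 20 counts), against 19.99% over 12297 genes with as many counts. For 6 of the 33 (18.2%) the highest subclone exceeded the lowest by a fold of more than 2, against 21.5% of those genes. They were *Map2k6*, *Map2k3*, *Map4k1*, *Mapk15*, *Mapk13* and *Map4k5*, with ratios of highest to lowest of 3.98, 6.74, 3.60, 3.63, 3.30 and 2.10. Subclone #2 was the lowest in *Map4k1*, *Mapk15* and *Mapk13*, and #1 was the lowest in *Map2k6*, *Map2k3* and *Map4k5*.

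**Figure D4:**
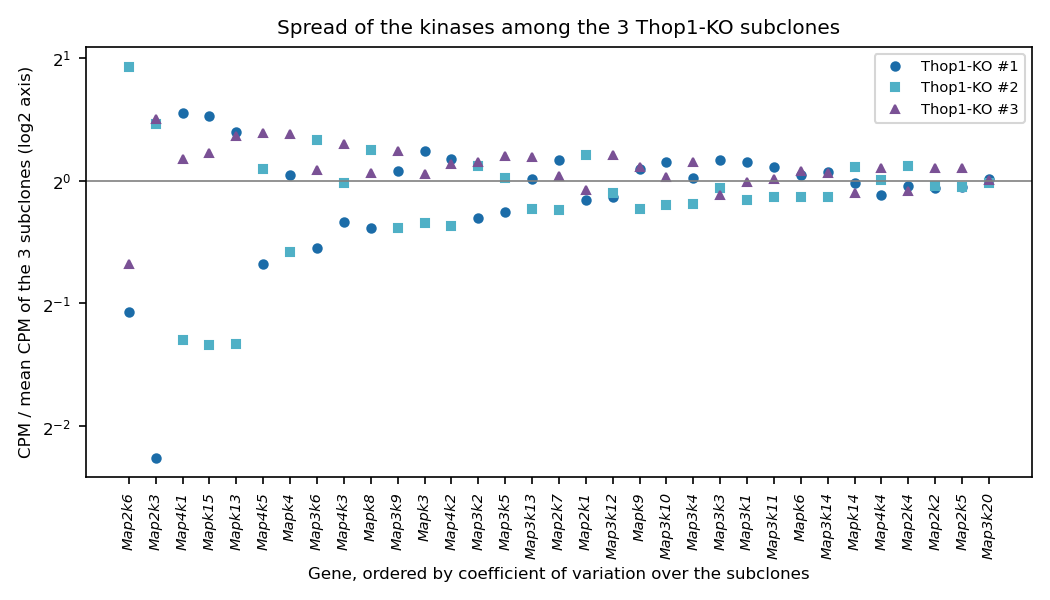
CPM of each kinase in each *Thop1*-KO subclone divided by the mean of the 3 subclones, on a log2 axis, for the 33 kinases with a mean of at least 20 counts, ordered by coefficient of variation. The spread is widest in *Map2k6* and *Map2k3*, and #2 lies apart from #1 and #3 in *Map4k1*, *Mapk15* and *Mapk13*.

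The other genes of the pathway were taken as 4 lists, to be read beside the 8.62% of all genes called higher and the 5.17% called lower. In the list of RAF and other kinases of the MAP3K and MAP4K levels, 1 of 7 tested was called higher and 0 lower, and this was *Taok3*, a TAO kinase, at 6.32, 6.90 and 8.01 CPM in #1, #2 and #3 and 1.35 in WT (log2 fold change 2.39, SE 0.48, adjusted p = 0.0271, edgeR, Benjamini-Hochberg). Of 14 scaffolds and adaptors tested, 2 were called higher and 0 lower. *Iqgap1*, a scaffold that binds several kinases of the ERK1/2 arm, was at 305, 317 and 274 CPM in the subclones and 116 in WT (log2 fold change 1.36, SE 0.24, adjusted p = 0.0200, same edgeR test). *Ksr1*, a scaffold of RAF, MEK and ERK, had 36, 46 and 25 counts across the subclones and 1 in WT (adjusted p = 0.0343 by edgeR). It passed the filter on low counts only through the subclones, and with 1 count in WT the size of its difference is uncertain. Of 11 kinases downstream of MAPKs tested, 1 was called higher and 0 lower. This was *Rps6ka4*, encoding MSK2, which phosphorylates histones and CREB, at 63.8, 45.0 and 55.4 CPM in the subclones and 22.4 in WT (log2 fold change 1.29, SE 0.32, adjusted p = 0.0461, same edgeR test). Of 12 target transcription factors tested, 1 was called higher and 0 lower, the p38 and ERK5 target *Mef2d*, at 99.2, 39.8 and 69.6 CPM in the subclones and 13.7 in WT (log2 fold change 2.34, SE 0.56, adjusted p = 0.0401, same edgeR test). DESeq2 called 1, 4, 1 and 1 genes of the lists higher, where it called 1987 of 13973 genes higher. None of the 4 lists held a gene called lower by DESeq2 or limma either, and at an unadjusted p under 0.05 the edgeR test gave 0, 0, 1 and 0 lower. The median log2 fold changes of the lists were 0.71, 0.71, 0.01 and 0.53, beside 0.06 for all genes tested.

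The 4 calls differed in how they held under 13 other settings. *Map2k7* passed in all 13, with log2 fold changes between 3.48 and 4.14. *Map3k12* passed in 12 and lost the call without #3, at an adjusted p of 0.107 by edgeR. *Mapk6* and *Map3k3* each passed in 7 and lost the call with upper quartile scaling, with the gene length correction, with both limma fits and without #1 or #3. Their log2 fold changes stayed above 0 throughout, between 0.65 and 1.07 for *Mapk6* and between 0.76 and 1.18 for *Map3k3*. Under a further call rule, an unadjusted p under 0.05 with a fold change of 2, *Map2k7*, *Map3k3* and *Map3k12* passed and *Mapk6* did not.

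**Figure D5:**
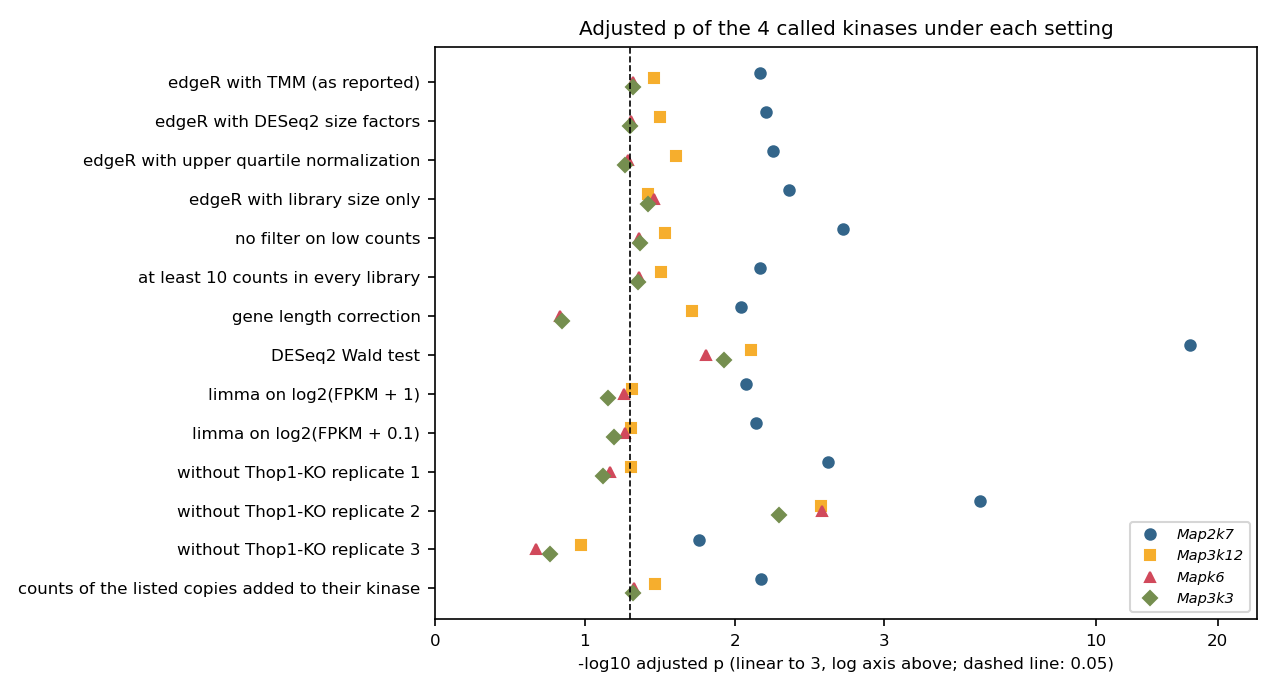
Adjusted p of the 4 called kinases under each setting, as -log10 (linear up to 3, log axis above), with a dashed line at 0.05. *Map2k7* lies to the right of the line in every row, and *Map3k12* in every row but the one without subclone #3. *Mapk6* and *Map3k3* each lie to the left of the line in 6 rows.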

How the data were processed

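RNA-seq of 1 WT and 3 *Thop1*-KO libraries was analysed, grouped by genotype from the labels. The methods state that noise and adaptors were removed with the FASTX toolkit, and the submitters' processing notes name HISAT2 2.0.5 and featureCounts 1.5.0-p3; the genome build, annotation release and strand setting are not given in the sources used here. The authors deposited raw counts per gene and FPKM values per gene, and each FPKM is the count over gene length over a factor of its library. A count of 0 allows up to 3 counts, and intervals cover counting error only.

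The test was the quasi-likelihood F-test of edgeR 4.0.16 (R 4.3.3) after filterByExpr with a minimum count of 10 and TMM scaling, called at a Benjamini-Hochberg adjusted p under 0.05; standard errors are the log2 fold change over the root of F. The test was run on simulated counts first. A gene that meets the naming rule is not reported here and enters no count or sum of members. All other genes of the MAPK and MAP2K tiers were named, as were called members and the 3 with the highest mean FPKM of the MAP3K and MAP4K tiers, and members not tested. Other members were added after their values were seen. Genes of other lists were named where called. The members and lists were chosen with earlier results of these data known. Alternatives were DESeq2 1.42.0, other scalings and filters, a loess correction for gene length (span 0.3), limma 3.58.1 on log2 of FPKM with 1 or 0.1 added, another call rule, leaving out each subclone and, added after the data were seen, summing copies. *Map2k4* was counted in the JNK arm only. Promoters were matched by symbol to RefSeq (GRCr8), and 36 of 40 matched. Figures used matplotlib 3.10.9.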

Additional observations from a re-analysis of the deposited data

How the results depend on the processing

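Of the number of kinases called higher (3), the values were 1 with upper quartile scaling, 1 with the gene length correction, 8 with DESeq2, and 9 with an unadjusted p under 0.05 and a fold change of 2. With each subclone left out it ranged from 1 (without #3) to 15 (without #2). The number called lower (1) was 2 with at least 10 counts in every library and 2 with the unadjusted rule, and ranged from 0 to 2 with each subclone left out. The number of all genes called moved with these: 1295 higher and 777 lower as reported, 1987 and 1019 with DESeq2, 3096 and 2476 without #2, 354 and 103 without #3, and 2443 and 1597 with the unadjusted rule. The median log2 fold change of the kinases (0.76) was 0.41 with the length correction, where that of all genes went from 0.06 to -0.09, and 0.33 with limma on log2(FPKM + 1), a scale that shrinks low genes. Medians near 0 turned sign. That of the MAP2Ks (-0.01) was 0.065 with library size only and 0.012 without a filter, and ranged from -0.13 (without #2) to 0.070 (without #1). That of the p38 arm (0.20) was -0.11 with the length correction and 1.43 with at least 10 counts in every library. The latter filter dropped *Mapk11*, so that the median fell between *Mapk14* (0.19) and *Mapk13* (2.67). The JNK median was 0.81 with limma on log2(FPKM + 1) and 1.12 as reported. The causes of the other shifts were not tested. No paired analysis was possible because WT has 1 library. At 3 counts or fewer per library, as for *Mapk7* and *Mapk12*, no difference was detectable. WT lay below all 3 subclones for 20 to 22 kinases under the 4 scalings.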

Other observations

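Some pathway genes, picked after their values were seen, separated subclone #2 from #1 and #3 as *Map4k1* and *Mapk13* did. *Araf*, encoding a RAF kinase, was at 1494, 442 and 1330 CPM in #1, #2 and #3 and at 468 in WT. *Mapk8ip2*, encoding the JNK scaffold JIP2, was at 121, 34.9 and 104 CPM in the subclones and 17.0 in WT, and *Tab1*, encoding a partner of TAK1, was at 52.1, 22.1 and 49.2 CPM and 17.6 in WT. None of these passed the edgeR test, at Benjamini-Hochberg adjusted p of 0.224, 0.0746 and 0.156. In *Araf*, #2 and WT were nearly level, while in the other pair #2 stood between WT and the other subclones. The difference between subclones was not tested, as each is 1 library.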
